A study of Mus musculus with 10 samples.

Results

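Plac8, Nr4a1, Treml4, Spn and Ace are 5 genes used to mark monocytes of the blood, and their levels were compared in the visceral fat of mice with and without a pancreatic tumour. They were chosen by name and read from the rows with those symbols in the deposited tables. All 5 were found in both tables, among 16667 genes with normalized counts and 29242 genes with TPM, the level of a gene's transcripts corrected for their length and for the size of the library. All 5 had a mean of at least 10 normalized counts and were tested, as were 14203 genes in all. The RNA came from the visceral fat pad of 10 mice, all wild-type, of strain C57BL/6 and 10 weeks old. The sample titles call the tissue gwat. One group of 5 mice had sham surgery, and the other group of 5 carried an orthotopic KPC tumour, that is, tumour of a mouse model of pancreatic ductal adenocarcinoma placed in the pancreas. The time from surgery to collection was not given in the sources used here, nor whether vessels were flushed of blood.

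Blood monocytes occur in a pair of main states. Classical monocytes, which carry much Ly6C in the mouse, leave the bone marrow and enter inflamed tissue with the help of the chemokine receptor CCR2, where they can become macrophages. Non-classical monocytes carry little Ly6C, depend on the transcription factor NR4A1 and patrol the inner wall of small vessels. Plac8 is high in classical monocytes, and Nr4a1, Treml4, Spn and Ace are used as marks of non-classical ones. None of the 5 belongs to monocytes alone, since neutrophils also carry Plac8, many stimulated cells induce Nr4a1, T cells carry Spn, and endothelium is rich in Ace.

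Each sample was whole tissue, so more cells of a type and more RNA per cell cannot be told apart for any gene described here. As a check of the tissue, the adiponectin gene Adipoq, which marks fat cells, averaged 4290 ± 559 TPM after sham surgery and 4264 ± 673 TPM with a tumour (mean ± SD, n = 5 each, an order kept in all pairs of levels given in this form). After the authors' scaling, counts summed to 20941200 to 24449900 per library, which does not give the sequencing depth. The library of KPC mouse 1 stood apart from the rest. Mitochondrial genes made up 15.7% of its TPM against 26.3% to 33.3% in the other 9 mice, and its median correlation with the other libraries across genes was 0.908 against 0.939 to 0.959. Its summed TPM of 12 leukocyte genes was 1057 against 217 to 315 in sham mice, and its summed TPM of 11 red cell genes was 40760 against 4751 to 12883. KPC mouse 2 was also high in red cell genes. Their mean log2 level relative to the sham mean was 1.70 there, 2.19 in KPC mouse 1 and at most 0.94 in sham mice. Many results are given with and without KPC mouse 1, but not all that it moved. The part of the leukocyte and red cell genes in the results was not tested beyond the values given beside them.

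Promoter sequences are shown for the 2 genes on which the values turn most, Plac8 because its groups separated and Nr4a1 because it is an immediate early gene as well as a monocyte gene. Plac8 (ENSMUSG00000029322) lies on chromosome 5 from 100553725 to 100572245 on the minus strand, and Nr4a1 (ENSMUSG00000023034) on chromosome 15 from 101254269 to 101274795 on the plus strand (GRCm38, GENCODE vM21, both protein-coding). The sequences below are from RefSeq on GRCm38.p6 and are written in the direction of transcription. In Plac8, at chr5:100572246-100572455 on the minus strand, the 210 bases before the first annotated exon are shown, and capitals mark GAGGAA, the core letters read by the myeloid factor PU.1. In Nr4a1, at chr15:101266596-101266845 on the plus strand, the 250 bases before the RefSeq start are shown, which lie inside the longer annotated gene, and capitals mark CGTCA, part of the cyclic AMP response element through which CREB acts.
Plac8: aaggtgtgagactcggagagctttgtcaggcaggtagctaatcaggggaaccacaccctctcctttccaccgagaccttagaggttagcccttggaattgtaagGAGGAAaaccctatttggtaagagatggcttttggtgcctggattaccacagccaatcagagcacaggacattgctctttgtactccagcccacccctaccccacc
Nr4a1: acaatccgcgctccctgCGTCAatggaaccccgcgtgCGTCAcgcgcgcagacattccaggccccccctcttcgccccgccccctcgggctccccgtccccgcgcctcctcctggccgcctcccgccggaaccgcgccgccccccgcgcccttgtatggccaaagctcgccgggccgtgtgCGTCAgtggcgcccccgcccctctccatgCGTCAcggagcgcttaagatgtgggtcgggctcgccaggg
The Nr4a1 window held CGTCA 4 times, where both strands were searched. Of 32851 promoter windows of 250 bases, 17.8% held this motif at least 1 time and 45 (0.137%) held it 4 times or more. None of the other 4 genes held it in the 250 bases before a RefSeq start. GAGGAA stood 2 times in the full window of 250 bases of Plac8, 1 of them in the sequence printed. It stood 2 times each in the windows of Treml4 and Ace, and not in those of Spn and Nr4a1. Plac8 and Ace each had another RefSeq start, whose window did not hold it. Of all windows, 23.3% held at least 1. AAAGGTCA, the site bound by NR4A receptors, stood in no window of the 5 genes and in 1.34% of all. Such matches are letters in a window and were not measured as binding.

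The 5 genes differed widely in level. By TPM, Plac8 stood at the 94.2 percentile of the tested genes, Ace at 73.1, Nr4a1 at 69.7, Spn at 17.0 and Treml4 at 8.89. In sham mice Plac8 was above the 4 others in every mouse, whereas the ranges of Ace and Nr4a1 overlapped. Spn ran from 0.766 to 2.03 TPM and Treml4 from 0.242 to 0.798 TPM in sham mice, so their ranges touched also. Treml4 rests on few reads, at 6.00 to 45.6 normalized counts per mouse, and its values are the least precise.

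Of the 5 genes, 0 passed limma's test at an adjusted p of 0.05 over all tested genes, where 0.0563% of all genes (8 of 14203) passed, 0.0493% higher and 0.00704% lower in KPC mice. All 5 had a mean difference above 0, as did 46.9% of all tested genes, whose median log2 difference was -0.02. Unadjusted limma p-values fell under 0.05 for Plac8 and Ace, against 7.61% of all genes on the higher side. Exact permutation p-values fell under 0.05 for Plac8 and Spn, against 7.78% of all genes on the higher side. Only for Plac8 did the groups not overlap, which held with KPC above sham for 2.75% of all genes and with KPC below for 1.28%.

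**Figure D1:**
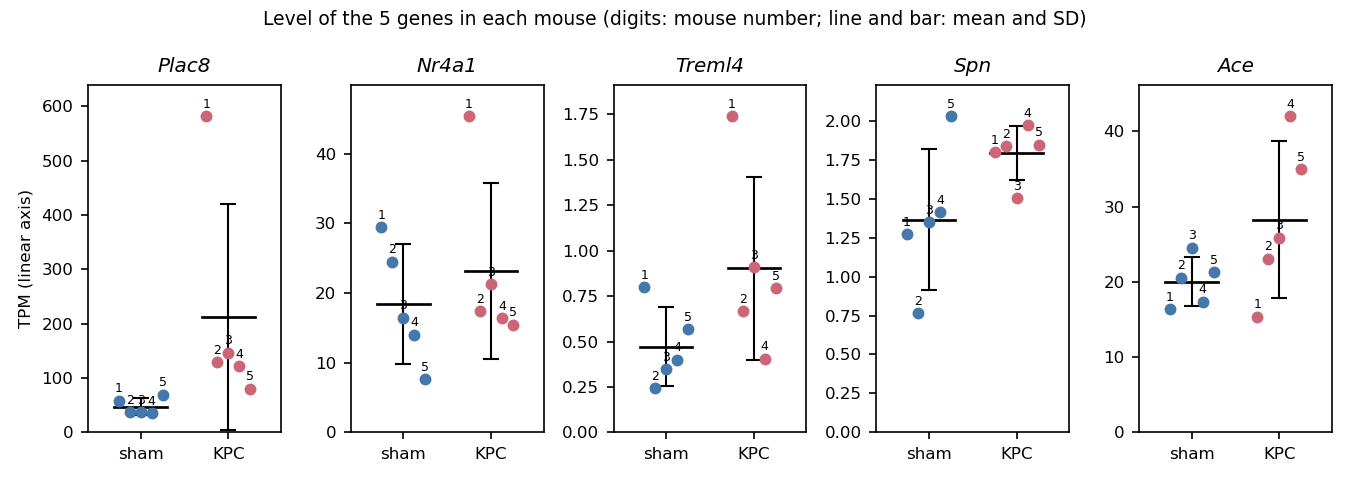
TPM of each of the 5 genes in every mouse, sham and KPC side by side, with points numbered by mouse and with the mean and SD of 5 mice per group. Plac8 was the gene whose groups did not overlap, with 34.9 to 69.7 TPM after sham surgery and 80.3 to 582 TPM with a tumour, and KPC mouse 1 was the highest of 10 for Plac8, Nr4a1 and Treml4.

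Plac8, the gene of the classical state, encodes a small cysteine-rich protein. It measured 58.4, 37.3, 37.7, 34.9 and 69.7 TPM in sham mice 1 to 5 and 582, 129, 146, 122 and 80.3 TPM in KPC mice 1 to 5. Every KPC mouse was above every sham mouse, and KPC mouse 1 was far above the rest. The means were 47.6 ± 15.6 and 212 ± 208 TPM, and the KPC mean was 119 ± 28.1 TPM without mouse 1. On the scale of log2(normalized count + 1), the difference was 1.85 ± 0.47 (SE), a 3.60-fold higher level with a 95% interval of 1.76 to 7.35. Limma's adjusted p was 0.162 and the two-sided exact permutation p was 0.00794, the smallest that 5 against 5 mice can give. Without KPC mouse 1 the difference was 1.37 ± 0.26 with limma's adjusted p at 0.0616. With the red cell genes as a covariate it was 1.11 with limma's adjusted p at 0.525.

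Nr4a1 encodes an orphan nuclear receptor that non-classical monocytes need, and that many signals induce as an immediate early gene. It measured 29.4, 24.5, 16.5, 14.04 and 7.64 TPM in sham mice and 45.4, 17.4, 21.3, 16.4 and 15.5 TPM in KPC mice. KPC mouse 1 was above all others, and the remaining KPC mice lay inside the sham range. The means were 18.4 ± 8.62 and 23.2 ± 12.6 TPM, and 17.6 ± 2.56 TPM in KPC mice without mouse 1. Its log2 difference was 0.38 ± 0.41 (95% interval -0.52 to 1.29) with limma's adjusted p at 0.711 and an exact permutation p of 0.452. The value was 0.09 without KPC mouse 1, also 0.09 without sham mouse 5, and 0.63 without sham mouse 1.

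Treml4, a TREM-like receptor of non-classical monocytes and some macrophages, lies on chromosome 17 from 48264295 to 48275360 on the plus strand (ENSMUSG00000051682, protein-coding). It measured 0.798, 0.242, 0.346, 0.400 and 0.568 TPM in sham mice and 1.74, 0.668, 0.910, 0.406 and 0.793 TPM in KPC mice. KPC mice 1 and 3 were above every sham mouse, while the other 3 lay inside the sham range. Its means were 0.471 ± 0.218 and 0.903 ± 0.504 TPM. The log2 difference was 0.87 ± 0.47 (95% interval -0.17 to 1.91), with limma's adjusted p at 0.442 and an exact permutation p of 0.0952. Without KPC mouse 1 it was 0.59 ± 0.45 with limma's adjusted p at 0.644, and the KPC mean was 0.694 ± 0.216 TPM.

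Spn encodes CD43, a long mucin-like protein on leukocytes, and lies on chromosome 7 from 127132232 to 127137823 on the minus strand (ENSMUSG00000051457, protein-coding). It measured 1.27, 0.766, 1.35, 1.41 and 2.03 TPM in sham mice and 1.80, 1.84, 1.50, 1.97 and 1.85 TPM in KPC mice. Sham mouse 5 was the highest of all 10, and the other 4 sham mice were below every KPC mouse. The KPC mice lay close together, with a coefficient of variation of 9.71% against 33.0% in sham mice, a contrast that was not tested. The means were 1.37 ± 0.450 and 1.79 ± 0.174 TPM. The log2 difference was 0.48 ± 0.22 (95% interval -0.01 to 0.97), with limma's unadjusted p at 0.0523 and adjusted p at 0.374, and an exact permutation p of 0.0476. Without sham mouse 2 it was 0.30.

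Ace encodes angiotensin-converting enzyme, which makes angiotensin II and breaks down bradykinin, and lies on chromosome 11 from 105967945 to 105989964 on the plus strand (ENSMUSG00000020681, protein-coding). It measured 16.3, 20.6, 24.6, 17.4 and 21.3 TPM in sham mice and 15.4, 23.1, 25.9, 42.0 and 34.9 TPM in KPC mice. KPC mouse 1, the highest mouse for Plac8, was here the lowest of all 10, and KPC mice 4 and 5 stood highest. The means were 20.0 ± 3.28 and 28.3 ± 10.4 TPM, and 31.5 ± 8.66 TPM in KPC mice without mouse 1. Its log2 difference was 0.46 ± 0.21 (95% interval 0.01 to 0.91), with limma's unadjusted p at 0.0460 and adjusted p at 0.361, and an exact permutation p of 0.0952. Without KPC mouse 1 it was 0.64 ± 0.15 with limma's adjusted p at 0.0983. An antisense gene model, Gm11651, overlaps Ace on the opposite strand. No normalized count or TPM was given under that symbol. Without a stated strand setting the reads of the pair cannot be told apart.

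The 5 genes did not vary alike from mouse to mouse. Against the sham mean, KPC mouse 1 was higher by log2 3.77 for Plac8, 2.00 for Treml4, 1.55 for Nr4a1 and 0.56 for Spn, and for Ace it stood at -0.26. KPC mouse 4 had the highest Ace, at 0.99, beside Nr4a1 at -0.11 and Treml4 at -0.18. In the same mice the mean of the leukocyte genes stood at 1.90 and 0.54 and the mean of the 15 endothelial genes at -0.36 and 0.36. Ace was thus low in the mouse with the lowest endothelial mean and high in a mouse with a high one. Over the 10 mice Ace had a Pearson r of 0.875 with the endothelial mean and -0.0812 with the leukocyte mean, whereas Plac8 had an r of -0.282 with the endothelial and 0.953 with the leukocyte mean. Without KPC mouse 1 the contrast was smaller, since Ace had an r of 0.878 with the endothelial and 0.675 with the leukocyte mean, and Plac8 had 0.478 and 0.900. Ace then also had an r of 0.918 with the mean of conventional dendritic cell genes and 0.815 with that of macrophage genes, above or near its value with the endothelial mean. With the neutrophil mean, Plac8 had an r of 0.911, Treml4 of 0.872, Nr4a1 of 0.740, Spn of 0.410 and Ace of -0.139. Without KPC mouse 1 these were 0.799, 0.756, 0.524, 0.322 and 0.255. These are descriptions over mice of both groups, which share their group difference and the library of KPC mouse 1.

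**Figure D2:**
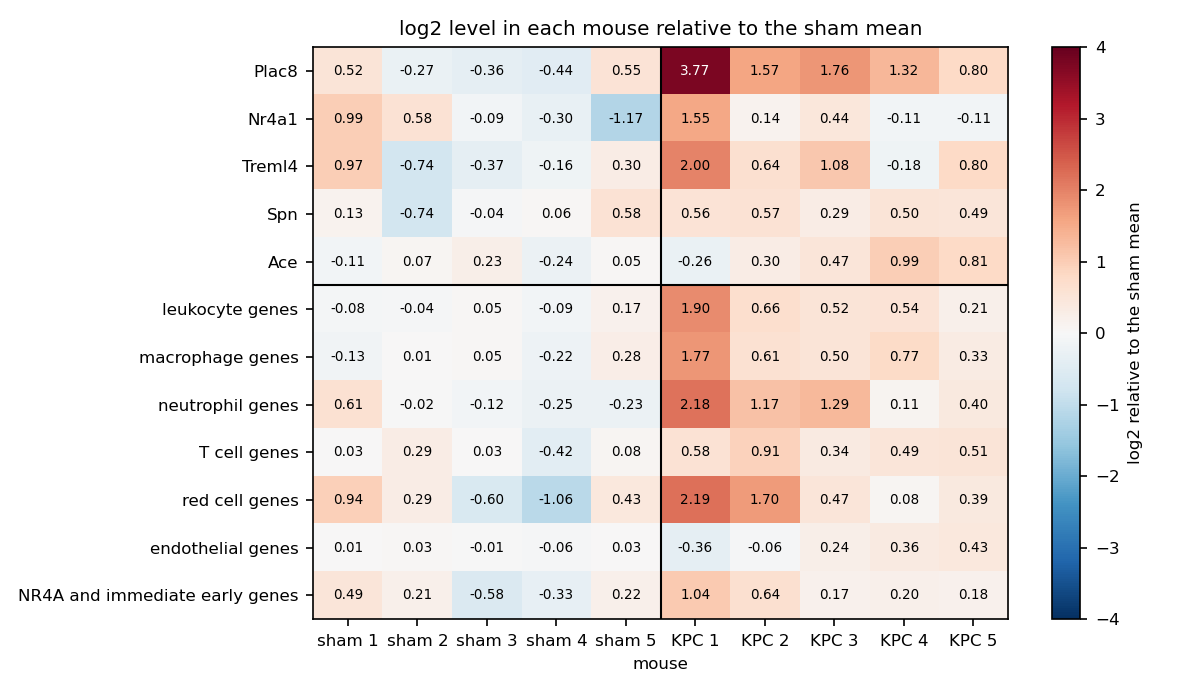
Heat map of the log2 level relative to the mean of the sham mice, for the 5 genes and for the mean of each of 7 gene lists, in each of the 10 mice. KPC mouse 1 is highest for Plac8 (3.77), leukocyte genes (1.90) and red cell genes (2.19) and is below the sham mean for Ace (-0.26) and endothelial genes (-0.36).

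Among the members, Plac8 and Treml4 had the highest r over 10 mice, at 0.839, and 0.683 without KPC mouse 1. Plac8 and Spn had 0.617, and without KPC mouse 1 nearly the same value as that pair, at 0.677. Nr4a1 and Spn, both assigned to the non-classical state, had an r of -0.176, and Nr4a1 and Ace had -0.307. Without KPC mouse 1 these were -0.468 and -0.066. Across the tested genes, with symbols of gene models (such as Gm or Rik names) left out, the 3 most like Plac8 were Irak4, Slc15a3 and Ctsc. Irak4, a kinase of Toll-like receptor signalling, had an r of 0.994, and 0.982 without the 2 mice farthest from the median. Slc15a3, a peptide carrier of lysosomes, had 0.988 and 0.963, and Ctsc, the lysosomal protease cathepsin C, had 0.979 and 0.934. Those most like Ace were Rela, a subunit of NF-kappa-B (0.979 and 0.945), and the endothelial genes Jam2 (0.976 and 0.934) and Adgrl4 (0.941 and 0.863). The nearest to Nr4a1 were Armc1, Plekhf2 and Psmd4 (r 0.963 to 0.934), to Treml4 Rab39, Cnih4 and Zfand6 (0.968 to 0.956), and to Spn H2-Ob, Epha5 and Cabp4 (0.922 to 0.903). These were the highest of those genes by choice, over 10 mice, and Cabp4 had an r of only 0.541 to Spn without 2 mice.

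The level of each gene was next set against that of general leukocyte genes in the same mouse, by subtracting the mean log2 value of the 12 leukocyte genes. Plac8 then stood at 0.20, -0.63, -0.80, -0.74 and -0.01 in sham mice and at 1.48, 0.52, 0.84, 0.38 and 0.20 in KPC mice. The groups met at sham mouse 1 and KPC mouse 5, while for 0.204% of all genes KPC mice lay wholly above. The difference was 1.08 ± 0.31 (95% interval 0.42 to 1.74), with limma's adjusted p at 0.0630, where 0% of all genes passed on the higher side and 4.84% had a difference above 0. With 15 macrophage genes in place of the leukocyte genes, the difference was 1.05 ± 0.32 with limma's adjusted p at 0.0353, which is past the threshold, as 0.268% of all genes were on the higher and 60.1% on the lower side. With the endothelial genes instead, a reference added after seeing the data, it was 1.73 ± 0.55 with limma's adjusted p at 0.248. Against the leukocyte genes without KPC mouse 1 it was 0.88 with limma's adjusted p at 0.0113, where 0.472% of genes passed higher and 55.5% lower. Without KPC mouse 5 it was 1.20 with limma's adjusted p at 0.0317, where 0.352% passed higher and 65.3% lower. With any other mouse left out it was 0.98 to 1.23, and limma's adjusted p was 0.0721 to 0.123, not past the threshold. In the fits against leukocyte and macrophage genes the subtraction moved most genes below 0. Since the adjustment of a p-value depends on how many genes pass, the size of the Plac8 difference is the firmer value. It lay between 0.88 and 1.23 in those fits.

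The other 4 genes gave no such value. Against the leukocyte genes the differences were -0.38 ± 0.38 for Nr4a1, 0.10 ± 0.49 for Treml4, -0.28 ± 0.34 for Spn and -0.30 ± 0.43 for Ace, and limma's adjusted p ranged from 0.363 to 0.856. Without KPC mouse 1 the value for Ace turned to 0.16 and that for Spn was -0.022. Their 95% intervals ran from -1.19 to 0.42, from -0.95 to 1.15, from -1.01 to 0.44 and from -1.21 to 0.61. Set against the endothelial genes instead, a choice made after seeing the data, Ace differed by 0.34 ± 0.14 with limma's unadjusted p at 0.0280 and adjusted p at 0.318.

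**Figure D3:**
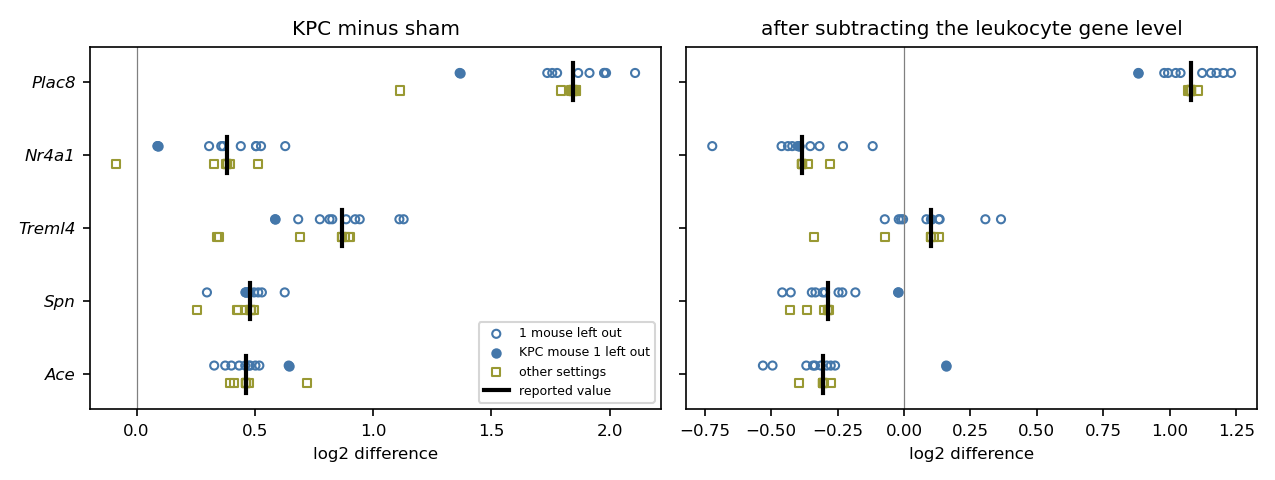
Log2 difference, KPC minus sham, of the 5 genes as reported, with each mouse left out in turn (circles, KPC mouse 1 filled) and under the other settings (squares, without the other reference lists). The left panel shows the gene itself and the right panel the gene after subtracting the leukocyte level. Plac8 stayed above 0 in both panels, at 1.37 to 2.11 and at 0.88 to 1.23 with 1 mouse left out.

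Ratios between the genes ask whether one member differed more than another within the same mice. Of 10 pairs compared, 0 passed an adjusted p of 0.05 over the pairs. The log2 ratio of Plac8 to Spn was 2.32 ± 0.42 (SD) in sham and 3.68 ± 1.11 in KPC mice, higher by 1.36, with an exact permutation p of 0.0238 and 0.132 after adjustment. For Plac8 to Nr4a1 and to Treml4 the differences were 1.46 and 0.98, each with an exact permutation p of 0.0397 and 0.132 after adjustment. For Plac8 to Ace it was 1.38, with an exact permutation p of 0.0556 and 0.139 after adjustment. Without KPC mouse 1 the differences were 0.72 for Plac8 to Ace and 1.28 for Plac8 to Nr4a1. Their exact permutation p-values were then 0.111 and 0.0794. The 6 ratios among Nr4a1, Treml4, Spn and Ace differed by -0.49 to 0.41, with exact permutation p-values of 0.381 to 0.937. The groups overlapped for all 10 ratios.

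The monocyte genes were read within lists of genes of the same state or pathway, each of which holds its own members of the 5. The classical list had 15 genes, Plac8 among them, all tested, and 14 had a difference above 0 and 0 passed limma's adjusted test, with a median log2 difference of 0.71 against -0.02 over all genes. Without KPC mouse 1 the median was 0.42, 13 of 15 had a difference above 0 and 2 passed limma's adjusted test. These were Hp at 1.45 (limma's adjusted p 0.0430) and F10 at 1.74 (0.0411). On the higher side 0.465% of all genes passed. Hp, which encodes the haemoglobin-binding protein haptoglobin and is also a gene of fat cells and liver, averaged 915 ± 339 and 3406 ± 2302 TPM. F10, coagulation factor X, stood at 0.243 ± 0.0447 and 1.50 ± 1.42 TPM. Ccr2 stood at 11.98 ± 2.68 and 26.3 ± 20.4 TPM, and at 17.3 TPM in KPC mice without mouse 1 (limma's adjusted p 0.328 with all mice). Ly6c2, which encodes Ly6C, stood at 6.72 ± 1.17 and 14.5 ± 11.5 TPM, and at 9.51 TPM without mouse 1 (0.426). Fn1, fibronectin, was the gene of the list with a difference below 0, at -0.03 ± 0.29.

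For the non-classical state, 18 of 19 listed genes were tested, Nr4a1, Treml4, Spn and Ace among them. Of these, 17 had a difference above 0, 0 passed limma's adjusted test, and the median was 0.65, or 0.57 without KPC mouse 1. Groups did not overlap for 4 of the 18, with KPC above in each, as for 2.75% of all genes, and the same held for 9 of 12 leukocyte and 6 of 15 macrophage genes. Pou2f2, the transcription factor OCT2, stood at 0.809 ± 0.0923 and 1.99 ± 0.799 TPM (log2 1.24 ± 0.26, limma's adjusted p 0.0992). Ear2, an eosinophil-associated ribonuclease that is also high in these monocytes, stood at 23.2 ± 6.97 and 48.7 ± 18.2 TPM (1.09 ± 0.25, 0.125). The receptors Clec4a1 and Clec4a3, the latter named after its values were seen, were the others, at log2 differences of 1.00 ± 0.28 and 1.09 ± 0.32. Cx3cr1, the fractalkine receptor that defines the state, stood at 0.751 ± 0.333 and 1.23 ± 1.03 TPM, and at 0.768 TPM in KPC mice without mouse 1. Eno3, an enolase that is also a muscle gene, stood lower, at 62.2 ± 78.7 and 9.61 ± 3.00 TPM (-1.67 ± 0.75, limma's adjusted p 0.365). Skeletal muscle genes were lower as well, with sums of 53.5 to 4300 TPM after sham surgery and 51.0 to 237 TPM with a tumour, and their part in its value was not tested.

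**Figure D4:**
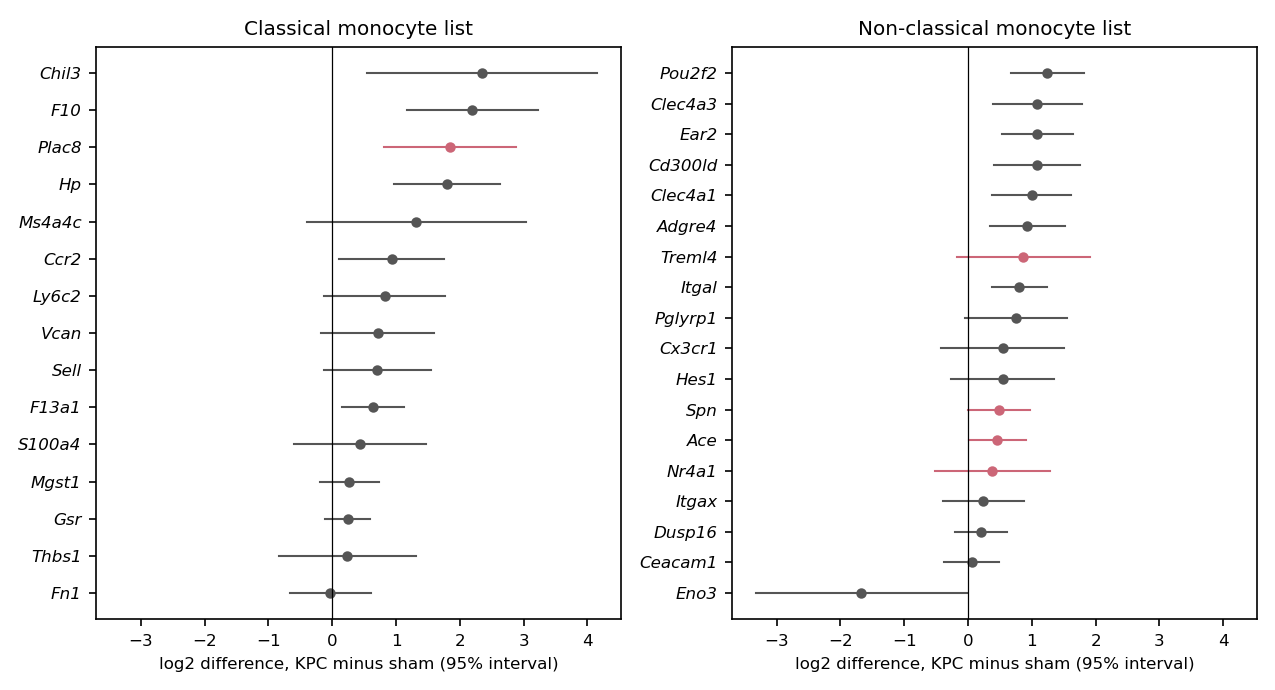
Log2 difference, KPC minus sham, with its 95% interval for each tested gene of the classical and non-classical lists, and with Plac8, Nr4a1, Treml4, Spn and Ace in red. Of 15 classical genes 14 lie above 0, with a median of 0.71, and of 18 non-classical genes 17 lie above 0, with a median of 0.65.

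Lists of other leukocytes also had medians above 0, with the exception of B cells. They were 0.78 for 12 leukocyte genes, 0.79 for 15 macrophage genes, 0.72 for 9 neutrophil genes, 0.65 for 8 T cell genes and 0.63 for 6 natural killer genes, and for 5 B cell genes the median was -0.33. Without KPC mouse 1 these medians were, in the same order, 0.51, 0.65, 0.58, 0.62, 0.55 and -0.16. None of these lists had a gene that passed limma's adjusted test with all mice. Without KPC mouse 1, 2 leukocyte and 3 macrophage genes passed on the higher side, as did 0.465% of all genes. The summed TPM of the macrophage list was 1023 to 1645 after sham surgery and 1703 to 6571 with a tumour, that of the neutrophil list 38.6 to 78.2 and 53.0 to 314, and that of the red cell list 4751 to 12883 and 8558 to 40760. The differences between these medians were not tested. The monocyte development factors gave a median of 0.53, or 0.31 without KPC mouse 1, with 10 of 12 above 0. Spi1, which encodes PU.1, stood at 14.4 ± 2.16 and 30.02 ± 20.3 TPM (log2 0.90 ± 0.34, limma's adjusted p 0.299), or 21.2 TPM and 0.55 without KPC mouse 1, and Csf1r, the receptor monocytes live by, at 45.8 ± 13.9 and 66.8 ± 15.5 TPM (0.60 ± 0.19, 0.254). Zeb2 stood lower, at 45.5 ± 5.72 and 33.8 ± 5.90 TPM (-0.40 ± 0.13, 0.254).

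Nr4a1 is an immediate early gene, so others were read with it. Of 19 tested of 20 listed, 16 were above 0, 0 passed limma's adjusted test and the median was 0.47. Without KPC mouse 1 the median was 0.36. Atf3, a stress-induced factor, stood at 6.11 ± 1.01 and 17.3 ± 7.22 TPM without overlap (log2 1.43 ± 0.29, limma's adjusted p 0.0956). The close relatives of Nr4a1 did not share a direction, with Nr4a2 at -0.70 ± 0.25 (0.286) and Nr4a3 at 0.47 ± 0.33 (0.549). Egr1 and Fos, the most widely used immediate early genes, stood at 31.1 ± 15.6 and 24.7 ± 12.8 TPM and at 32.3 ± 38.8 and 35.9 ± 23.3 TPM, with wide spread in both groups.

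For Treml4 the TREM family was read, of which 6 of 10 listed genes were tested and 6 were above 0, with 0 passing and a median of 0.89, or 0.48 without KPC mouse 1. Syk, the kinase behind the TREM adaptor, stood at 6.24 ± 0.824 and 11.8 ± 3.89 TPM without overlap (log2 0.91 ± 0.19, limma's adjusted p 0.103). Trem2, a receptor of lipid-laden macrophages, stood at 20.7 ± 10.0 and 50.6 ± 58.0 TPM, and at 24.9 TPM in KPC mice without mouse 1. For Spn, 10 of 14 partners of CD43 and related sialomucins were above 0, with 0 passing and a median of 0.27, or 0.15 without KPC mouse 1. Among them Icam1, an adhesion receptor reported to bind CD43, stood at 13.1 ± 1.23 and 21.04 ± 3.26 TPM without overlap (0.71 ± 0.14, 0.0835).

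For Ace, 16 of 20 renin-angiotensin and kinin genes were tested, 9 were above 0, 0 passed limma's adjusted test and the median was 0.06. The smallest p-values belonged to Prcp, a carboxypeptidase that cuts angiotensin II, at 9.92 ± 1.92 and 13.5 ± 2.39 TPM (log2 0.48 ± 0.14, limma's adjusted p 0.225), and to Agtrap, which binds the angiotensin receptor, at 11.1 ± 2.94 and 18.8 ± 6.42 TPM (0.77 ± 0.23, 0.239). Agt, the precursor of angiotensin, stood at 113 ± 38.7 and 138 ± 46.2 TPM (log2 0.33 ± 0.27, limma's adjusted p 0.618), and the receptor gene Agtr1a at 7.82 ± 2.86 and 6.94 ± 2.09 TPM (-0.11 ± 0.23, 0.858). Mme, which encodes neprilysin, a peptidase that also breaks down kinins, was lower in every KPC mouse than in any sham mouse, at 24.9 ± 1.58 and 16.9 ± 4.81 TPM (-0.59 ± 0.19, 0.259). Of the 15 endothelial genes, 10 were above 0 with a median of 0.11, and 14 without KPC mouse 1 with a median of 0.22. Pecam1 stood at 88.5 ± 7.88 and 99.5 ± 29.0 TPM and Cdh5, vascular endothelial cadherin, at 75.1 ± 6.74 and 73.3 ± 28.1 TPM. Vwf, von Willebrand factor, had the smallest p of the list, at 30.9 ± 9.81 and 49.0 ± 10.9 TPM (log2 0.72 ± 0.23, limma's adjusted p 0.252).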

How the data were processed

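Visceral adipose RNA of 10 mice was measured by RNA sequencing. Per the labels' protocols, the QIAGEN RNeasy Plus kit was used on flash-frozen tissue, and libraries were made at Genewiz. The authors deposited gene counts they had normalized, treated here as a signal because they are fractional, and a table of TPM. The authors' tools were Salmon, DESeq and DESeq2 with build mm10, per the submitters' processing notes. Their versions, the annotation and the strand handling were not given in the sources used here. All 20 sample columns matched a sample by name. Only 31.1% to 47.3% of low values were within 0.05 of a whole number at the best step, so read counts could not be rebuilt and count models were left out. Sequencing depth is unknown, since totals of normalized counts do not measure it.

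Genes with a mean of at least 10 normalized counts (14203) were tested on log2(normalized count + 1) by limma-trend (limma 3.58.1, R 4.3.3), so folds of low genes are understated. The Benjamini-Hochberg adjustment ran over all of them, and 0.05 was the threshold. Exact two-sided permutation tests used all 252 assignments of mice (SciPy 1.17.1, Python 3.11.15). For levels relative to a list, the list's mean log2 value was subtracted from every gene in each mouse and the fit was repeated. The fit was tested on simulated data. Named genes are the members and the 3 genes most alike to each by Pearson r, with gene models left out. Named too are up to 5 genes per list with the smallest p, up to 2 in the other direction, and fixed defining genes. To these Adipoq, Fos, Egr1 and Clec4a3 were added after their values were seen. The members and lists were chosen with earlier results of these data known. Alternatives were TPM, another pseudocount and filter, no variance trend, a red cell covariate, blocks, other reference lists and each mouse left out.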

Additional observations from a re-analysis of the deposited data

Results flagged for a closer look

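In KPC mouse 1, Plac8 stood at 582.18 TPM, far from the other 4 KPC mice at 80.3 to 146 TPM, and the gap to the nearest of them took up 0.868 of the group's range. Nr4a1 in the same mouse stood at 45.41 TPM against 15.5 to 21.3 TPM in the others, with a gap of 0.805 of the range. Both exceed Dixon's critical value of 0.71 for 5 samples. Of the 10 groups of 5 values checked 2 were marked in this way, both by the library of KPC mouse 1. The check was made on TPM and not on the log2 scale of the tests. Dixon's value assumes normally spread values, so no rate by chance is set beside this count.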

How the results depend on the processing

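Of 104 alternatives for the differences of the 5 genes, 103 kept the direction and 0 passed the threshold. The exception was Nr4a1 with the red cell covariate, at -0.086. With that covariate Plac8 was 1.11, Treml4 0.34 and Ace 0.72, and on TPM Treml4 was 0.35 and Spn 0.26. With each mouse left out in turn, the differences ranged from 1.37 to 2.11 for Plac8, 0.09 to 0.63 for Nr4a1, 0.59 to 1.13 for Treml4, 0.30 to 0.63 for Spn and 0.33 to 0.64 for Ace. Relative to leukocyte genes they ranged from 0.88 to 1.23 for Plac8, -0.72 to -0.12 for Nr4a1, -0.072 to 0.36 for Treml4, -0.46 to -0.02 for Spn and -0.53 to 0.16 for Ace. Among these fits Plac8 passed the threshold only without KPC mouse 1 or without KPC mouse 5. Relative to leukocyte genes Treml4 was -0.34 on TPM and -0.070 with a pseudocount of 5. With the macrophage reference Plac8 was 1.05, past the threshold. With the endothelial reference, added after seeing the data, Plac8 was 1.73 and did not pass (limma's adjusted p 0.248). Treml4 was then 0.75, Ace 0.34, Nr4a1 0.26 and Spn 0.36, also not past the threshold. On TPM the log2 ratios of Nr4a1 to Spn, Spn to Ace and Treml4 to Ace turned to 0.069, -0.16 and -0.065, and with mice left out they ranged from -0.54 to 0.23, -0.18 to 0.15 and -0.058 to 0.80, with Nr4a1 to Ace at -0.55 to 0.19. Of 110 alternatives for ratios, 16 turned and 2 passed, Plac8 to Spn and to Treml4 on TPM. The pseudocount of 1 used on TPM is large beside Treml4 at 0.242 to 1.74 TPM and Spn at 0.766 to 2.03 TPM. It flattens the differences of these genes. For genes above 100 normalized counts in every mouse, normalized counts and TPM differed by little more than 1 factor per sample. TPM is therefore not a second measurement. The 7 genes called higher became 2 on TPM, 2 without a variance trend, 1 with the red cell covariate, 3 with the replicate block and 3 with the title number as a block, and 1 to 66 with a mouse left out, 66 being without KPC mouse 1. The 1 called lower became 0 on TPM and 1 to 4 with a mouse left out. The cause of these changes was not tested. A filter of 50 left Treml4 without a value.

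Pairing of the mice by replicate number was neither shown nor excluded. Same-numbered mice deviated together with correlations of 0.00505 to 0.191, and 2 of 5 sham mice correlated best with their own number. The first number of each sample title (1, 2 or 4), whose meaning the labels do not give, is shared across groups, and mice of different groups with the same such number had a mean correlation of 0.065 against -0.029 for other pairs. Most mice with the same replicate number also share this title number, so these numberings cannot be fully told apart. With the replicate block, Plac8 differed by 1.85 with limma's adjusted p at 0.135. The SE of Nr4a1 was 0.20 with that block against 0.41 without it, with limma's adjusted p at 0.444. The block changed no call of the 5 genes.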
